A study of Mus musculus with 9 samples.

Results

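Th17-derived Th1 cells were compared with the midpoint of the conventional Th1 and Th17 cells, taken gene by gene as the average of the 2 group means of log2(FPKM + 1). FPKM is a read level per transcript length and per library size. The comparison covered 10538 of 22017 genes, those with at least 1 FPKM in at least 3 of the 9 libraries. It was chosen to show which genes of the converted cells lie outside the range of both parent fates and which gene groups lie nearer 1 of them.

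T helper cells take on effector fates under the cytokines present at activation. Th1 cells depend on IL-12, STAT4 and the transcription factor T-bet, and secrete interferon-gamma. Th17 cells depend on TGF-beta, IL-6 and STAT3, and secrete IL-17. The Th17 fate is known as plastic, since Th17 cells exposed to IL-12 can begin to make interferon-gamma. Interferon-gamma itself acts on T cells and induces guanylate-binding proteins and antiviral genes, many of which type I interferon induces too.

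The cells were T cells from spleens of wild-type C57BL/6 mice, activated for 3 days through CD3 (antibody at 5 ug/mL) and CD28 (1 ug/mL), given IL-2 (100 U/mL) from day 5, activated again on day 7 (0.05 ug/mL of each antibody) and lysed on day 10. Th1 cells (3 libraries) were held with IL-12 (10 ng/mL) and an antibody against IL-4. Th17 cells (3 libraries) were held with TGF-beta (1 ng/mL), IL-6 (20 ng/mL), IL-1beta (10 ng/mL) and antibodies that block IL-4, IL-12 and interferon-gamma. Th17-derived Th1 cells (3 libraries) had the Th17 condition first and the Th1 condition from the second activation, so the block on interferon-gamma ended at the same time as IL-12 was added, and the effects of these changes cannot be told apart. Whether the replicates of a group were separate cultures or animals is not given in the labels. The p-values therefore describe only how far these samples spread, and part of that spread may be technical.

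Libraries held 382581 to 405985 FPKM in sum, their read depth is unknown, and replicates of a group correlated at 0.964 or more across genes. The T cell genes Cd4, Cd3e and Zbtb7b summed to 246 to 334 FPKM in Th1, 268 to 289 in converted and 269 to 349 in Th17 cells. Cd3e was the largest part in every library. Cd4 alone was at 124, 81.1 and 57.1 FPKM in Th1, 91.1, 86.8 and 96.9 in converted and 97.5, 88.1 and 52.9 in Th17 cells. It was thus lowest in replicate 3 of Th1 and of Th17 cells, but not of converted cells. The CD8 chains Cd8a and Cd8b1 summed to 19.8 to 170 FPKM in Th1, 25.5 to 152 in converted and 50.8 to 203 in Th17 cells. In each group replicate 3 was the highest. There Cd8a alone was at 117 FPKM in Th1, 104 in converted and 141 in Th17 cells, above Cd4 in the same library. For this reason the main counts are also given for replicates 1 and 2 of each group. In bulk RNA, fewer cells of a type and less RNA per cell cannot be told apart.

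Against the midpoint, 283 genes were higher in converted cells (2.69% of those tested) and 224 were lower (2.13%), with limma adjusted p-values below 0.05. Of these, 103 and 49 lay at least 2-fold away. The median gene lay -0.03 log2 units from the midpoint. Of these 507 genes, 332 were not among the genes that separate Th1 from Th17 cells by the rule given below. A midpoint on the log scale lies below the level of an equal blend of Th1 and Th17 RNA. Against such a blend, 185 genes were higher and 284 lower, and all 185 had also been higher than the log midpoint. Replicates 1 and 2 alone gave 149 and 121. Without converted replicate 1 they were 51 and 27, without converted replicate 2 they were 78 and 42, and omission of Th1 replicate 3 (165 and 110), Th17 replicate 1 (145 and 76) or Th17 replicate 2 (155 and 79) also lowered both by over 1.5 times, as omission of Th1 replicate 1 did for the lower genes (145).

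**Figure D1:**
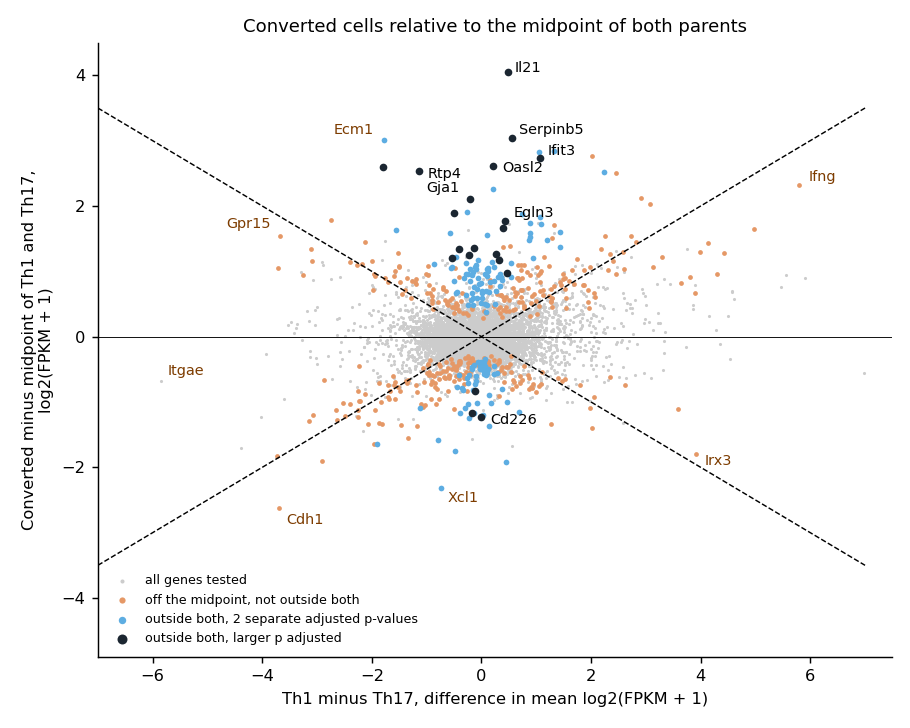
Each point is a gene, with the Th1 minus Th17 difference on the x axis and the difference of converted cells from the midpoint on the y axis, both in log2(FPKM + 1); dashed lines mark the 2 parent means. Genes above or below both dashed lines had a converted mean outside both parents, with Il21 highest at 4.05 log2 units, whereas Ifng and Gpr15 lay within the parent range but well off its middle.

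A gene was called outside both parents when the converted cells differed from Th1 and from Th17 cells in the same direction and the larger of the 2 p-values, adjusted over all genes, was below 0.05. By this rule 17 genes were above both parents (0.161%) and 3 below both (0.0285%), and in each of the 20 the 3 converted libraries did not overlap the 6 parent libraries. When each of the 2 differences only had to pass its own adjusted test, 95 genes were above (0.901%) and 53 below (0.503%). Of the 95, 22 were tested only through the converted cells, where they are high, and of the 53, 1 only through Th1 cells. The 17 genes were Il21, Serpinb5, Ifit3, Oasl2, 5830411N06Rik, Rtp4, Gja1, Cmpk2, Egln3, Oas2, Fscn1, Mpeg1, Fam83g, Disp1, Coro2b, Casp6 and Etv6, and the 3 were Pik3cg, Gfod1 and Cd226. Of the 17, 8 (Il21, Serpinb5, Oasl2, Oas2, Fscn1, Mpeg1, Fam83g and Coro2b) reached 1 FPKM in fewer than 3 parent libraries. They were tested only through the converted cells, where they are high, and their calls are a description; the other 9 did not depend on these libraries to be tested. Under the stricter rule the count of genes above both fell to 5 without converted replicate 1 or 2, to 7 without Th1 replicate 3 or Th17 replicate 1, to 8 without Th17 replicate 2 and to 10 without Th17 replicate 3. The count below both fell to 0 without Th1 replicate 3, Th17 replicate 1 or 3, or converted replicate 1 or 2, and to 1 without Th1 replicate 1 or Th17 replicate 2. Replicates 1 and 2 alone gave 2 above and 1 below by the stricter rule. All 20 genes nevertheless passed both separate tests in the same direction in every alternative in which they could be tested. With replicates 1 and 2 alone, 12 of the 17 and all 3 of the genes below passed both separate tests; the other 5 of the 17 had too few libraries at 1 FPKM to be tested there.

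**Figure D2:**
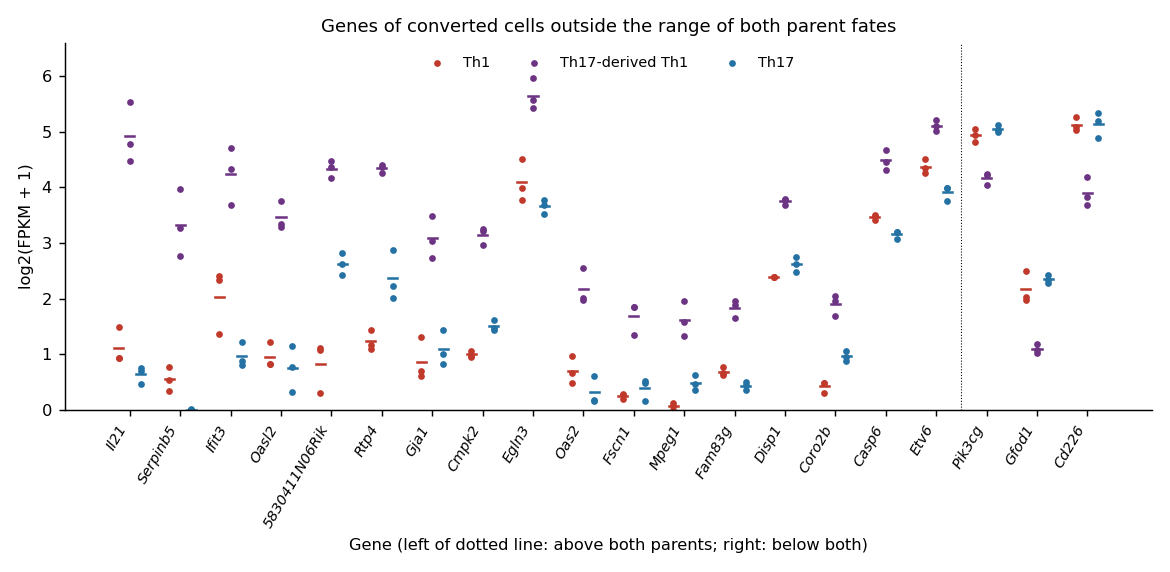
Levels in log2(FPKM + 1) of the 17 genes above and 3 genes below both parents, with 1 point per library and a bar at each group mean. The 3 converted libraries of each gene stand clear of all 6 parent libraries, for Il21 at 21.3 to 45.3 FPKM against at most 1.80 FPKM.

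Il21 encodes the cytokine interleukin-21, made by T follicular helper and Th17 cells, and acts on B cells and CD8 T cells (chromosome 3, 37222759 to 37232636, GRCm38). Its level was 45.3, 26.4 and 21.3 FPKM in the 3 converted libraries, 1.80, 0.913 and 0.919 FPKM in Th1 and 0.700, 0.383 and 0.624 FPKM in Th17 cells. Every converted library was thus more than 10 FPKM above every parent library, and the parents lay close to each other. On the log2(FPKM + 1) scale the mean was 14.02-fold that of Th1 and 19.5-fold that of Th17 cells, 4.05 ± 0.23 (SE) above the midpoint (adjusted p = 0.000113; 0.000950 against both parents). It was called in all 20 alternatives that tested it. Since Il21 was tested only through the converted cells, where it is high, these p-values and calls are a description.

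Antiviral genes made up 5 of the 17. These were 5 of 35 tested members of the antiviral list below, beside 0.161% of all genes tested. Oasl2, an oligoadenylate synthetase-like protein, was at 8.80, 9.12 and 12.6 FPKM in converted cells, 1.33, 0.776 and 0.770 in Th1 and 0.707, 0.260 and 1.22 in Th17 cells. Ifit3, a protein of the tetratricopeptide family that inhibits viral RNA, was at 11.8, 19.1 and 25.1 FPKM against 4.06, 1.57 and 4.34 in Th1 and 0.842, 0.756 and 1.34 in Th17 cells. For both genes the lowest converted library was above every parent library, and converted replicate 3 was the highest of the 3. Rtp4, a receptor transporter that is also an interferon-induced antiviral protein, was at 18.2, 20.1 and 19.7 FPKM, 1.25, 1.13 and 1.71 in Th1 and 3.71, 3.04 and 6.38 in Th17 cells. Cmpk2, a mitochondrial nucleotide kinase, was at 6.79, 8.50 and 8.32 FPKM, 0.974, 1.10 and 0.949 in Th1 and 1.70, 2.08 and 1.79 in Th17 cells. For these 2 genes the converted libraries lay close together, and every Th17 library was above every Th1 library. From the midpoint the 4 genes stood 2.61 ± 0.19 (Oasl2), 2.73 ± 0.28 (Ifit3), 2.54 ± 0.18 (Rtp4) and 1.89 ± 0.10 (Cmpk2) log2 units higher. Oas2, which makes the second messenger that activates RNase L, was at 3.03, 2.92 and 4.87 FPKM and at most 0.958 FPKM in any parent library. Reads shared between close copies, such as Ifit3 with Ifit3b, may be split in ways the sources used here do not give.

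The wider list of antiviral interferon-stimulated genes lay above the midpoint as well. Of 35 tested members of 40 listed, 19 were higher than the midpoint, 0 were lower and 16 did not pass. Over all genes tested, 2.69% were higher and 2.13% lower. At an unadjusted limma p below 0.05, 28 members were higher and 0 lower, beside 824 and 1068 of all 10538 genes. Array weights gave 30 and 0, beside 1604 and 1740 of all genes. Of the 19, Oasl2, Oas2 and Ifit3b were tested only through the converted libraries. The median of the 35 lay 0.70 log2 units above the midpoint, 0.57 above Th1 and 0.99 above Th17 cells, against -0.03, 0.05 and -0.12 over all genes tested. The converted mean was above both parent means for 32 of the 35, and for 1615 of all 10538 genes. On 2 separate tests 14 members were above both parents, beside 0.901% of all genes tested. Among the 14 was Irf7, the interferon-induced amplifier of type I interferon genes. It was at 21.6, 26.0 and 31.6 FPKM against 11.4, 6.31 and 9.59 in Th1 and 10.9, 11.1 and 16.7 in Th17 cells. Not all members followed. Mx1, an antiviral dynamin-like GTPase named here after its value was seen, lay at position 0.48 on a scale where 0 is the Th17 mean and 1 the Th1 mean. With replicates 1 and 2 alone, 11 of 33 members were higher and 0 lower. Without converted replicate 1 the count of higher members was 9, and without converted replicate 2 it was 11.

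Guanylate-binding proteins and immunity-related GTPases attack the membranes of intracellular parasites and are strongly induced by interferon-gamma. Of 18 tested, 12 were higher than the midpoint, 0 were lower and 6 did not pass, where 2.69% and 2.13% of all genes tested were called. An unadjusted limma p below 0.05 gave 17 and 0, beside 824 and 1068 of all 10538 genes. Array weights gave 18 and 0, beside 1604 and 1740 of all genes. Gbp11 was at 38.3, 40.3 and 22.4 FPKM in converted cells, 12.3, 14.9 and 11.2 in Th1 and 5.89, 5.25 and 8.52 in Th17 cells, above both parents in every library. Gbp2 was at 825, 736 and 1212 FPKM, 1173, 234 and 945 in Th1 and 66.3, 57.8 and 111 in Th17 cells, so that it overlapped with Th1 cells and stood clear of Th17 cells. Both separate tests passed for 5 members, Gbp11, Irgm1, Irgm2, Ifi47 and Tgtp2, all above both parents, beside 0.901% of all genes tested. The 8 members that separated the parents were all higher in Th1 cells, and the converted cells reached a median position of 1.11 among them, with 1.11, 1.11 and 1.12 in the 3 libraries. Replicates 1 and 2 alone left 11 of 18 higher. The count was 2 without converted replicate 1, 4 without converted replicate 2 and 7 without Th17 replicate 1.

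**Figure D3:**
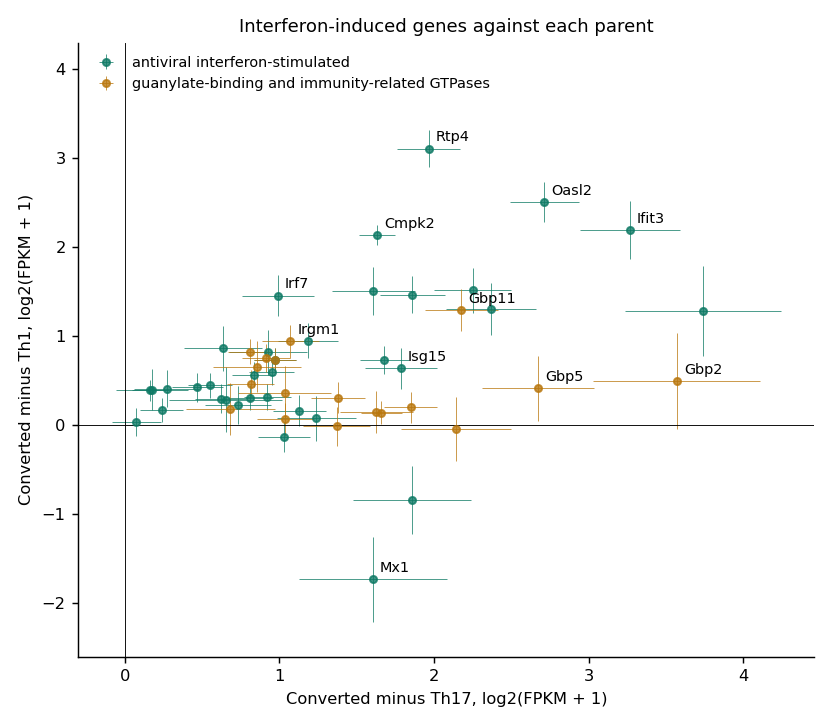
Each point is a gene of the antiviral or GTPase list, with the difference of converted cells from Th17 on the x axis and from Th1 on the y axis, in log2(FPKM + 1) with standard errors. Antiviral genes such as Rtp4, Oasl2 and Ifit3 lie far from 0 on both axes, whereas Gbp2 and Gbp5 lie far from Th17 and close to Th1 cells.

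Promoters of the genes above both parents were searched for the core of the interferon-stimulated response element as GAAANNGAA, and for the core of the gamma-activated site as TTCNNNGAA, on both strands of the 250 bases before each start. Among 95 genes above both parents on separate tests, 69 matched the RefSeq promoter table (GRCm38.p6), with 81 promoters. The first core was found in 19.8% of these, 6.27% of the 10670 promoters of genes tested, 7.13% of all 32851 promoters and 3.85% of the 52 promoters of genes below both parents. The second core was found in 4.94%, 5.95%, 7.02% and 5.77% in the same order. These are shares of a short motif and no record of binding. Of the 95 genes, 22 were tested only through the converted cells, where they are high, so the shares of that set are a description. The GTPase list held the first core in 9 of 11 promoters and the antiviral list in 10 of 31. These lists held the second core in 6 of 11 and 5 of 31. Sites of 5 genes above both parents are shown with up to 25 bases on each side of the match, in the direction of transcription, as the letters on which these shares rest. Capitals mark the match, which in Ifit3, Ifit1 and 5830411N06Rik is the reverse complement of the core.
Ifit3, chr19:34583383-34583441, plus strand: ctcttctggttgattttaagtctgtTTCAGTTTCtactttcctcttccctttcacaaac
Ifit1, chr19:34640755-34640813, plus strand: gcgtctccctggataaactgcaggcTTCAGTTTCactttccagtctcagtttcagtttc
5830411N06Rik, chr7:140247273-140247331, plus strand: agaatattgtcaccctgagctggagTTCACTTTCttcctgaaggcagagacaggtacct
Cxcl10, chr5:92349069-92349127, minus strand: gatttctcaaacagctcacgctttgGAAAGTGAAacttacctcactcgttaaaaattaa
Irgm2, chr11:58214888-58214946, plus strand: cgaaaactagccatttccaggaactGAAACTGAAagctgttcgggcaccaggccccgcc

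Of these, Cxcl10, the interferon-induced chemokine that attracts CXCR3-bearing cells, was at 116.7, 101 and 56.5 FPKM in converted cells, 25.9, 7.19 and 24.6 in Th1 and 6.97, 5.21 and 11.96 in Th17 cells. The clone-named gene 5830411N06Rik was at 19.6, 17.0 and 21.1 FPKM, 1.11, 0.243 and 1.16 in Th1 and 5.15, 4.41 and 6.10 in Th17 cells. In both genes the lowest converted library was above the highest parent library.

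The other genes above both parents had mixed roles. Serpinb5, a serpin known from epithelial cells, was at 14.6, 8.63 and 5.78 FPKM in converted cells, 0.464, 0.273 and 0.712 in Th1 and 0, 0.0181 and 0 in Th17 cells. Gja1, the gap junction protein connexin 43, was at 10.2, 7.17 and 5.66 FPKM, 1.48, 0.625 and 0.521 in Th1 and 1.70, 1.01 and 0.774 in Th17 cells. Both were lowest in converted replicate 3, as Il21 was. Egln3, the oxygen sensor that hydroxylates HIF and is itself a hypoxia target, was at 61.3, 46.6 and 41.8 FPKM against 21.7, 12.6 and 14.96 in Th1 and 12.7, 11.9 and 10.5 in Th17 cells. Disp1, a transporter that releases Hedgehog ligands, was at 12.7, 11.9 and 12.9 FPKM, 4.23, 4.27 and 4.22 in Th1 and 5.20, 5.76 and 4.59 in Th17 cells. Its change was 2.57-fold against Th1 and 2.19-fold against Th17 cells. Casp6, an executioner caspase, was 2.02-fold and 2.513-fold higher, and Etv6, an ETS-family repressor, 1.67-fold and 2.30-fold. The other 4 were Fscn1, an actin-bundling protein, Mpeg1, a perforin-like protein, Fam83g and Coro2b, which each stayed below 5 FPKM in every library.

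Ecm1, a secreted protein that Th2 cells use to leave lymph nodes, was among the largest differences although its larger p did not pass (adjusted p = 0.0692). It was at 209, 180 and 166 FPKM in converted cells, 17.2, 6.31 and 13.3 in Th1 and 49.9, 55.7 and 25.7 in Th17 cells. Every converted library exceeded every parent library, 14.96-fold in the mean against Th1 and 4.35-fold against Th17 cells. Il6st, the gp130 chain shared by receptors of the IL-6 family, was at 42.0, 33.7 and 42.7 FPKM, 23.9, 13.8 and 14.3 in Th1 and 7.84, 8.36 and 6.17 in Th17 cells (adjusted p = 0.0788 against both). Tnfrsf8, which encodes the receptor CD30, was at 44.7, 38.3 and 32.9 FPKM, 8.98, 26.0 and 11.1 in Th1 and 1.77, 1.48 and 3.57 in Th17 cells. Its ligand gene Tnfsf8 was also above both on separate tests, at 62.0, 60.5 and 56.1 FPKM against 47.8, 43.8 and 37.8 in Th1 and 38.8, 37.3 and 46.7 in Th17 cells. Ly6g, a GPI-anchored protein used as a neutrophil marker, was at 9.38, 10.4 and 34.7 FPKM, 2.25 to 3.05 in Th1 and 0.0761 to 0.711 in Th17 cells, while the neutrophil genes S100a8, S100a9, Csf3r and Elane were listed at 0 in all 9 libraries.

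Genes below both parents were fewer. Cd226, the activating receptor DNAM-1 of NK and T cells, was at 13.2, 11.9 and 17.2 FPKM in converted cells, 33.1, 31.6 and 37.5 in Th1 and 35.4, 28.4 and 39.5 in Th17 cells. Pik3cg, the catalytic PI3-kinase subunit activated by chemoattractant receptors, was at 17.6, 15.4 and 18.03 FPKM, 27.2, 32.2 and 29.9 in Th1 and 34.0, 31.9 and 31.0 in Th17 cells. Both genes were nearly equal in the parents and fell in each converted library, Cd226 by 1.23 ± 0.14 and Pik3cg by 0.83 ± 0.08 log2 units from the midpoint. Gfod1, an oxidoreductase-domain protein, was at 1.03, 1.11 and 1.27 FPKM against 2.96 to 4.63 in Th1 and 3.85 to 4.38 in Th17 cells.

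On separate tests, genes below both parents also included Xcl1, Cd160 and Cd244a. In the cytotoxic list 0 of the 23 tested genes were below both, beside 0.503% of all genes tested. Array weights gave 2, in a fit that called 141 of all 10538 genes below both by the stricter rule. Xcl1, the chemokine that attracts cross-presenting dendritic cells, was at 6.15, 11.2 and 7.42 FPKM in converted cells, 37.6, 20.2 and 50.3 in Th1 and 56.9, 56.7 and 58.0 in Th17 cells, -2.32 ± 0.26 log2 units from the midpoint. Cd160, an inhibitory receptor of NK and CD8 T cells, was at 10.5, 11.2 and 22.03 FPKM, 41.0, 27.6 and 52.6 in Th1 and 32.9, 28.8 and 47.7 in Th17 cells. Cd244a, the SLAM receptor 2B4, was at 1.31, 1.88 and 2.09 FPKM, 2.55, 4.04 and 3.80 in Th1 and 14.9, 14.5 and 17.3 in Th17 cells. Each converted library was under every parent library for these 3 genes. The immediate early genes Dusp2, a phosphatase of MAP kinases, and Ier2 were below both as well, at -1.16 and -0.52 log2 units from the midpoint. The summed level of the 7 NK cell markers was 9.51 to 20.3 FPKM in converted, 12.4 to 18.8 in Th1 and 30.1 to 35.1 in Th17 cells, with 1 of 4 tested members lower than the midpoint (Klrb1c), Klra4 at 0 throughout, and the CD8 sums given above; the part of either cell type in these differences was not tested. A fit of replicates 1 and 2 alone called 42 genes below and 47 above both parents on separate tests.

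To place the converted cells between their parents, 998 genes were used that differed between Th1 and Th17 cells with an adjusted p below 0.05 and by at least 1 log2 unit (9.47% of those tested), 529 higher in Th1 and 469 higher in Th17 cells. The position of a gene is the distance of the converted mean from the Th17 mean in units of the distance between the parents. The median position was 0.57, with 0.54, 0.48 and 0.70 in the 3 converted libraries (mean 0.58 ± 0.12, SD, n = 3). Genes higher in Th1 had a median of 0.61 and genes higher in Th17 of 0.52. Of the 998, 125 lay significantly on the Th1 side of the midpoint (12.5%), 50 on the Th17 side (5.01%) and 823 on neither, and a gene beyond a parent counts with that parent's side. The counts were 82 and 45 with replicates 1 and 2 alone and 27 and 12 without converted replicate 1. They were 45 and 15 without converted replicate 2, 54 and 27 without Th17 replicate 1, 53 and 29 without Th17 replicate 2, and 78 and 26 without Th1 replicate 3. Without converted replicate 3 they were 82 and 52, with a median position of 0.51. With array weights they were 328 and 339, more on the Th17 side, with a median of 0.46.

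**Figure D4:**
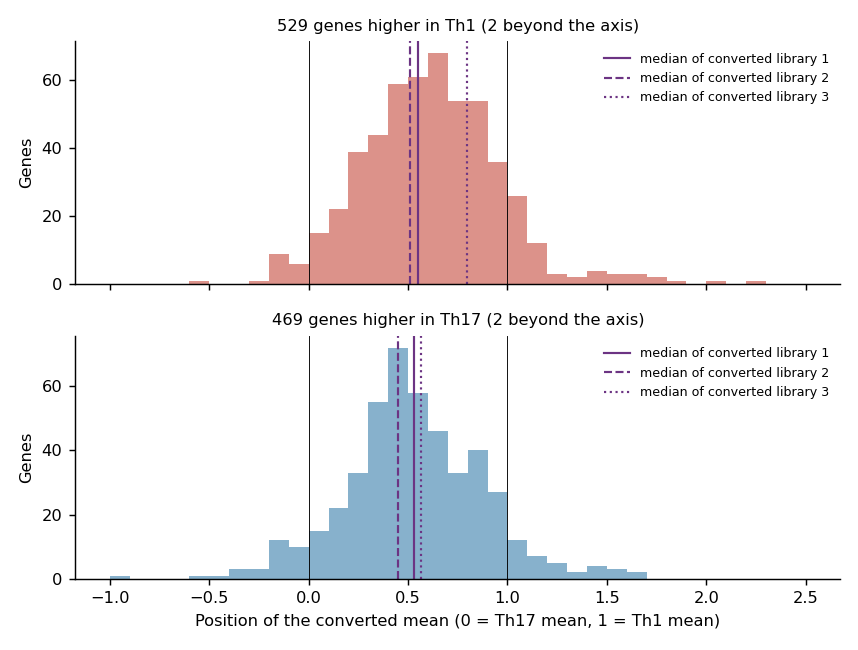
Number of genes by position of the converted mean, where 0 is the Th17 mean and 1 the Th1 mean, for genes higher in Th1 (top) and higher in Th17 cells (bottom); vertical purple lines are the medians of single converted libraries. Both sets centre between the parents, and library 3 lies to the right of the others, most clearly at 0.80 for genes higher in Th1.

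Converted replicate 3 lay nearest Th1 cells, and it also had the most CD8 chain RNA of its group (Cd8a at 104 FPKM against 17.4 and 27.4). The cytotoxic list followed that library most. Its 14 separating members, all higher in Th1 cells, had median positions of 0.39, 0.37 and 0.88 in the 3 converted libraries, whereas 0 of 14 lay on either side of the midpoint by the limma test (with array weights, 1 on the Th1 and 4 on the Th17 side of 17). Over the 23 tested members 0 were higher and 2 lower (2 and 5 at an unadjusted p below 0.05, 1 and 7 with array weights). Of all genes tested, 2.69% were higher and 2.13% lower, and of all separating genes 12.5% and 5.01% lay on the Th1 and Th17 side. At an unadjusted p below 0.05, 824 of all 10538 genes were higher and 1068 lower. Array weights gave 1604 and 1740, with 328 and 339 separating genes on the Th1 and Th17 side. Prf1, the pore-forming perforin, was at 105, 117 and 249 FPKM in converted, 219, 161 and 273 in Th1 and 9.35, 10.4 and 32.3 in Th17 cells. Ctsw, a cathepsin of cytotoxic cells, fell below the midpoint, at 83.6, 93.1 and 174 FPKM against 208, 159 and 248 in Th1 and 298, 306 and 258 in Th17 cells. The part of CD8 T cells in these values was not tested.

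**Figure D5:**
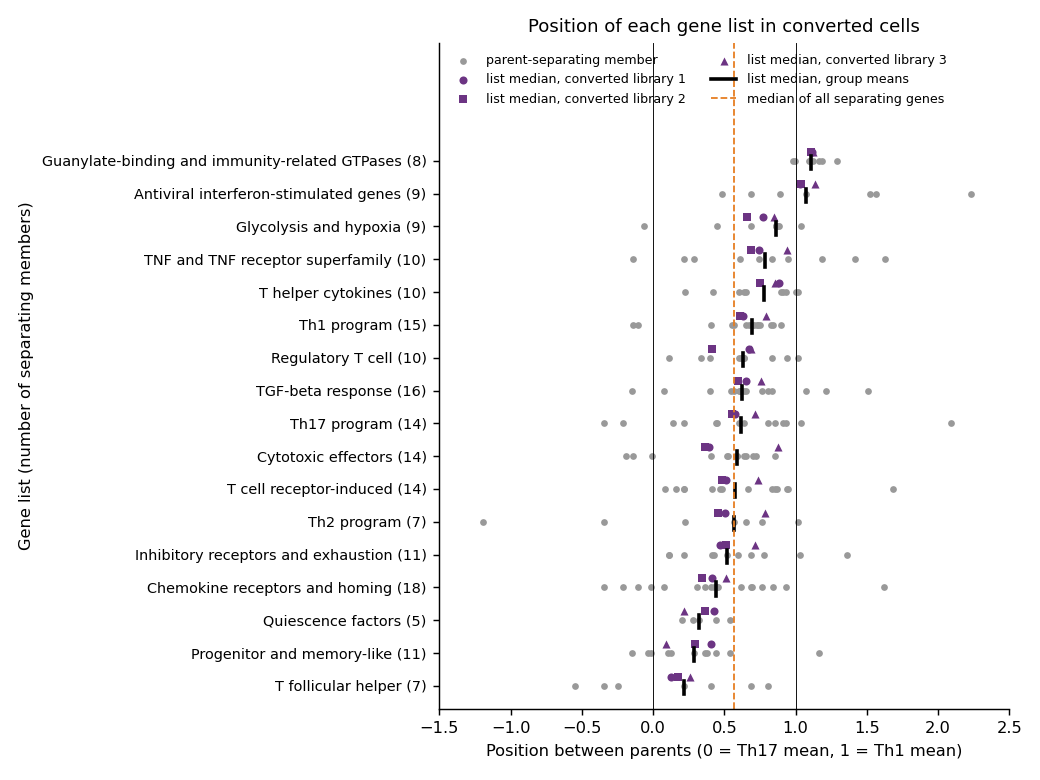
Positions of the parent-separating members of each list with at least 5 of them (grey points; 2 lie beyond the axis), with the list median of the group means (black bar) and of each converted library (purple); the orange line is the median over all 998 genes. T follicular helper and progenitor lists sit at 0.22 and 0.28, and the antiviral and GTPase lists at 1.07 and 1.11.

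Among Th1 program genes, the secreted products were nearest to Th1 levels. Ifng was at 975, 990 and 717 FPKM in converted cells, 1005, 2013 and 1137 in Th1 and 19.9, 14.2 and 40.7 in Th17 cells, at position 0.90. All 3 converted libraries lay below the lowest Th1 library and above every Th17 library, 2.32 ± 0.32 log2 units above the log midpoint (adjusted p = 0.00591) and 0.40 above an equal blend (adjusted p = 0.668). Furin, the proprotein convertase induced by IL-12, was at 556, 518 and 639 FPKM, 1020.1, 779 and 999 in Th1 and 52.0, 64.2 and 56.8 in Th17 cells, at position 0.82. The chemokine gene Ccl4 was at position 0.84. Tbx21, which encodes T-bet, was at 26.7, 24.1 and 48.1 FPKM, 92.9, 67.5 and 97.3 in Th1 and 6.88, 6.30 and 12.3 in Th17 cells, at position 0.56 and not off the midpoint (adjusted p = 0.795). Cxcr3, the Th1 homing receptor, was at 10.2, 11.5 and 24.7 FPKM, against 11.7 to 24.8 in Th17 and 35.8 to 68.0 in Th1 cells. Its lowest 2 values were thus under every parent library and the third was within the Th17 range (position -0.11, midpoint adjusted p = 0.131). The list had a median position of 0.69 in 15 separating genes. Over the list, 4 of 23 were higher than the midpoint, 1 lower and 18 did not pass, beside 2.69% and 2.13% of all genes tested. The counts were 3 and 3 with replicates 1 and 2 alone, and 1 and 1 against an equal blend. Of all 10538 genes, 185 were higher and 284 lower than such a blend. Omission of converted replicate 1, 2 or 3 gave 1 and 1, 2 and 1, and 2 and 4, and of Th17 replicate 1 gave 2 and 1.

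Members of the Th17 program lay on both sides of the midpoint, with Il17f and Il17a near the Th1 level and Ccr6 and Maf above the Th17 mean. Il17f was at 0.217, 0.408 and 0.0801 FPKM in converted cells, listed at 0, 0 and 0.0386 in Th1 and at 8.77, 7.62 and 7.58 in Th17 cells, at position 0.91. Il17a was at 0.160, 0.103 and 0.102 FPKM, listed at 0 in all 3 Th1 libraries and at 6.16, 2.99 and 4.22 in Th17 cells, at position 0.93. Both cytokine genes were thus close to the Th1 level in every converted library. Ccr6, the receptor that guides Th17 cells to mucosal tissue, was at 3.20, 4.04 and 2.14 FPKM, at most 0.250 in Th1 and 2.25 to 2.26 in Th17 cells. Maf, the c-MAF factor that drives Il21 and Il10, was at 49.9, 45.7 and 27.6 FPKM, 12.9, 7.60 and 7.14 in Th1 and 28.7, 28.9 and 24.6 in Th17 cells. For both genes the converted mean lay above the Th17 mean, and converted replicate 3 was the lowest of its group. Of 17 tested members, 7 were higher and 2 lower than the midpoint, and 4 of 14 separating members lay on each side (2.69% and 2.13% of all genes tested were higher and lower). Il17f and Il17a, the 2 lower members, reached 1 FPKM only in Th17 cells, and Il21 was tested only through the converted cells, so these calls are a description. The counts of higher and lower members were 4 and 4 against an equal blend, beside 185 and 284 of all 10538 genes. They were 5 and 0 of 15 with replicates 1 and 2 alone, where Il17a and Il17f had too few libraries at 1 FPKM to be tested. Omission of converted replicate 1 or 2 left 2 and 3 higher, with 1 lower in each, and omission of any Th17 library left 0 lower, since Il17a and Il17f then had too few libraries at 1 FPKM to be tested.

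Of 10 separating cytokine genes, 5 were on the Th1 side of the log midpoint (Ifng, Il17f, Il17a, Csf2 and Il10) and 0 on the Th17 side, beside 12.5% and 5.01% of all separating genes. Against an equal blend 3 were on the Th1 side and 1 on the Th17 side, beside 103 and 47 over all separating genes. Array weights gave 5 and 4, beside 328 and 339 over all genes that separated the parents in that fit. As above, Il17f and Il17a were tested only through Th17 cells. The cytokine genes had median positions of 0.88, 0.75 and 0.86 in the converted libraries. Il10, an anti-inflammatory cytokine gene, was at 98.8, 91.2 and 93.9 FPKM in converted cells, 68.9, 106 and 107 in Th1 and 10.95, 8.73 and 19.1 in Th17 cells. Csf2, which encodes GM-CSF, was at 10.99, 12.02 and 10.4 FPKM, 8.30, 17.6 and 9.10 in Th1 and 0.965, 1.02 and 1.06 in Th17 cells. Both overlapped the Th1 libraries and stood about their mean. Over 23 tested members 5 were higher and 3 lower than the log midpoint (Il21 and Areg tested only through converted cells). Against an equal blend they were 2 and 5, beside 185 and 284 of all 10538 genes. Of all genes tested, 2.69% were higher and 2.13% lower than the log midpoint. Converted replicates 1 and 2, when left out in turn, gave 1 and 2 higher with 2 lower in each.

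Progenitor and memory-like genes had a median position of 0.28 in 11 separating members, and of 0.41, 0.29 and 0.09 in the 3 converted libraries. Of the 11, 1 was on the Th17 side (Ccr7), 0 on the Th1 side and 10 on neither. The shares of all separating genes on these sides were 5.01% and 12.5%. Tcf7, which encodes TCF-1, the factor of progenitor T cells, was at 253, 272 and 366 FPKM in converted cells, 79.2, 26.2 and 50.6 in Th1 and 419, 431 and 264 in Th17 cells, at position 0.11. All converted libraries exceeded all Th1 libraries and overlapped with Th17 cells, but the midpoint difference of 1.15 ± 0.31 did not pass (adjusted p = 0.0748). Ccr7, the receptor for lymph node entry, did pass, at 149, 145 and 127 FPKM against 36.1, 33.9 and 20.6 in Th1 and 160, 161 and 99.6 in Th17 cells (adjusted p = 0.0184). Satb1, a chromatin organiser, was at 148, 133 and 160 FPKM, 91.2, 45.6 and 72.3 in Th1 and 105, 94.3 and 73.4 in Th17 cells, and was the highest in converted cells. Of 24 tested members, 3 were higher and 1 lower, and 20 did not pass (11 and 1 at an unadjusted p below 0.05). Shares over all genes tested were 2.69% higher and 2.13% lower. At an unadjusted p below 0.05, 824 of all 10538 genes were higher and 1068 lower. The count of higher members was 0 without converted replicate 1 or 2, 1 without Th1 replicate 3, Th17 replicate 1 or Th17 replicate 2, and 2 without converted replicate 3.

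T follicular helper genes had the lowest median position of the lists with at least 5 separating members, 0.22 in 7 genes, and 4 of these were on the Th17 side (Il6ra, Maf, Cd200 and Pou2af1), beside 5.01% of all separating genes. Over 14 tested members, 8 were higher than the midpoint and 0 lower (11 and 0 at an unadjusted p below 0.05, 10 and 1 with array weights). Their median was 0.90 log2 units, and 2.69% and 2.13% of all genes tested were higher and lower. At an unadjusted p below 0.05, 824 of all 10538 genes were higher and 1068 lower, and with array weights 1604 and 1740. Of the 8, Il21 was tested only through the converted cells, where it is high, so its call is a description. Pou2af1, a coactivator of octamer-binding factors, was at 9.54, 7.87 and 5.50 FPKM in converted cells, 0.547, 0.700 and 0.555 in Th1 and 4.32, 4.25 and 2.69 in Th17 cells. Btla, an inhibitory receptor, was at 45.3, 39.2 and 39.6 FPKM, 22.5, 17.5 and 15.2 in Th1 and 25.6, 23.2 and 15.8 in Th17 cells. Both were above all parent libraries. Icos and Tnfsf8 were above both on separate tests too, a call that held in 7 and 12 of 20 alternatives and in neither gene with replicates 1 and 2 alone. Bcl6, the factor that directs the follicular fate, was at 2.89 FPKM in the mean against 5.45 in Th1 and 3.60 in Th17 cells and did not pass (adjusted p = 0.638). Replicates 1 and 2 alone left 5 of 14 higher. The count was 2 without converted replicate 1 or 2, and 5 without Th1 replicate 3, Th17 replicate 1 or Th17 replicate 2.

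TGF-beta response genes had a median position of 0.63 in 16 separating members, against 0.57 over all separating genes. Of the 16, 2 were on the Th1 side and 1 on the Th17 side, near the 12.5% and 5.01% of all separating genes. Cdh1, which encodes E-cadherin, was at 0.0727, 0.141 and 0.135 FPKM in converted cells, 0.311, 2.39 and 0.577 in Th1 and 25.1, 29.7 and 17.8 in Th17 cells, -2.62 ± 0.28 from the midpoint, and was tested only through Th17 cells. Skil, a SMAD corepressor induced by TGF-beta, was at 10.5, 12.2 and 9.93 FPKM, within the Th1 range of 10.0 to 15.8 but for its lowest value, and below the Th17 range of 32.7 to 65.9. Gpr15, a gut homing receptor, went the other way at 26.5, 26.4 and 25.5 FPKM, 2.39, 1.98 and 0.731 in Th1 and 29.5, 33.6 and 33.6 in Th17 cells, at position 0.08. Itgae, the CD103 integrin chain, lay between at 5.93, 6.61 and 11.8 FPKM, 0.688 to 1.19 in Th1 and 102 to 109 in Th17 cells. Single genes thus lay near each parent, while the side counts of the list were near those of all separating genes. Against an equal blend 0 of 22 members were higher and 8 lower, where the log midpoint gave 1 and 3. Of all 10538 genes, 185 were higher and 284 lower than such a blend. For the log midpoint the shares over all genes tested were 2.69% and 2.13%.

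Listed or not, the genes within the parent range that lay farthest toward Th1 included Lilrb4a, an inhibitory immunoglobulin-like receptor, and Fes, a tyrosine kinase. Lilrb4a was at 199, 152 and 185 FPKM against 267 to 285 in Th1 and 10.7 to 23.9 in Th17 cells. Fes was at 38.3, 33.1 and 41.4 FPKM against 37.7 to 58.5 in Th1 and 3.77 to 4.98 in Th17 cells. P2rx3, an ATP-gated channel of sensory neurons, was at 15.1, 15.7 and 35.5 FPKM against 25.9 to 58.4 and 0.0509 to 0.366. Lilr4b, Apol9a, Apol9b and Kcnip2 completed the 10 with Ifng, Il17f and Furin, and Lilrb4a with Lilr4b and Apol9a with Apol9b are close copies. Il17f, Apol9a, Apol9b and Kcnip2 reached 1 FPKM in just enough libraries to be tested. They could be tested in only 6 of the fits that left out 1 library, so their calls are a description. Farthest toward Th17 stood Irx3, a homeobox factor, at 0.0687, 0.0928 and 0.184 FPKM in converted cells, 17.9, 10.3 and 14.8 in Th1 and listed at 0 in all 3 Th17 libraries. Irx3 was tested only through Th1 cells, where it is high, so its call is a description. Cyp2s1, a cytochrome P450 known as a target of the aryl hydrocarbon receptor, was at 9.59, 9.80 and 12.4 FPKM, at most 0.771 in Th1 and 9.79 to 14.2 in Th17 cells. Il6ra, the IL-6 receptor chain, was at 12.7, 14.4 and 11.4 FPKM, 0.478 to 1.56 in Th1 and 14.8 to 30.3 in Th17 cells. The remaining 7 were Gpr15, Nsg2, Myl10, Ccdc136, Lgmn, Tmem176a and Als2cl. From both sets, Ifng, Il17f, Furin, Il6ra and Gpr15 are also members of the lists counted above. Thus Irx3 and Ccdc136, both high in Th1, were near the Th17 level, and the other 8 were high in Th17 and lay near that level in converted cells.

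Of the remaining lists given here, most had few or no calls, while glycolysis and hypoxia had 5 higher of 25 tested. Of all genes tested, 2.69% were higher and 2.13% lower than the midpoint. At an unadjusted p below 0.05, 824 of all 10538 genes were higher and 1068 lower, and with array weights 1604 and 1740. Of 32 cell cycle genes, 0 were off the midpoint by limma (1 at an unadjusted p below 0.05, 4 with array weights), with a median of -0.10 log2 units. Of 22 cholesterol synthesis genes 0 were off it (1 unadjusted, 2 with array weights), and of 19 quiescence factors 0 (1 unadjusted, 5 with array weights). Among 21 MHC class I processing genes 1 was called, H2-T23, a non-classical class I gene, at 237, 242 and 280 FPKM against 156 to 235 in Th1 and 108 to 119 in Th17 cells. Of 25 glycolysis and hypoxia genes 5 were higher and 0 lower (8 and 0 unadjusted, 18 and 0 with array weights), among them Egln3 and Pdk1, the kinase that diverts pyruvate from mitochondria, at 22.2, 22.1 and 25.6 FPKM against 6.61 to 8.09 in Th1 and 17.9 to 24.6 in Th17 cells. That count was 2 or 3 when any converted library, Th1 replicate 1 or 3, or Th17 replicate 1 or 2 was left out. Of 19 inhibitory receptor and exhaustion genes 1 was higher (Btla) and 2 lower (Cd244a and Cd160), and among 30 T cell receptor-induced genes 2 were higher (Jun and Il2ra) and 2 lower (Dusp2 and Ier2).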

How the data were processed

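The authors deposited a table of FPKM values (22017 genes by 9 libraries). HISAT2, DESeq2 and the mm10 build were used per the submitters' processing notes, with roles, versions and annotation not given in the sources used here. Low values showed no steps of single reads, so read counts and depth are unknown and no counting interval is given.

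Values were fitted as log2(FPKM + 1), which understates differences of low genes, with limma (version 3.58.1, R 4.3.3) and a mean-variance trend over all 9 libraries (6 residual degrees of freedom). P-values were two-sided and adjusted by the Benjamini-Hochberg method over the 10538 genes tested, with a threshold of 0.05; the fit was tested on simulated data. Gene positions came from GENCODE (GRCm38), in which 21962 symbols were found.

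The comparison, gene lists and rules were chosen with earlier results of these data known. Named genes were up to 12 outside both parents per direction (no overlap, a group mean of at least 5 FPKM, no predicted or clone name), 10 per side within the parent range, 40 key genes and up to 3 called genes per direction and list; other genes were named after their values were seen, and some genes under this rule are left out here. Lists overlap, for example in Il21 and Ifi47. Alternatives covered pseudocounts, filters, scalings, array weights, a replicate block, an equal blend and the omission of libraries. Python 3.11.15 was used for tables (pandas 2.3.3) and figures (matplotlib 3.10.9).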

Additional observations from a re-analysis of the deposited data

How the results depend on the processing

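In the order higher and lower than the midpoint, above and below both parents, and nearer Th1 and Th17, the counts were 283, 224, 17, 3, 125 and 50. Array weights gave 1604, 1740, 155, 141, 328 and 339, and replicates 1 and 2 alone 149, 121, 2, 1, 82 and 45; the cause was not tested. A pseudocount of 0.1 gave 9 genes above both, and of 5 gave 5 below both, 64 nearer Th1 and 26 nearer Th17. No filter gave 1 below both, and a minimum of 5 FPKM gave 142 lower, 11 above both and 32 nearer Th17, where fewer genes were tested. Quantile normalization gave 5 below both, an equal blend 185 higher, and 2 separate adjusted p-values 95 above and 53 below. Parents at least 2 log2 units apart gave 47 nearer Th1 and 16 nearer Th17, and no minimum difference 228 and 114. Leaving out 1 library gave 51 to 378 higher, 27 to 311 lower, 5 to 17 above both, 0 to 5 below both, 27 to 154 nearer Th1, 12 to 70 nearer Th17, and a median position of 0.50 to 0.62 (0.57 with all). Of 79 named genes off the midpoint, 30 kept the call in each omission, and 0 reversed in any alternative run.

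With a replicate block the counts were 334, 275, 15, 2, 164 and 66, and for the cytotoxic list 1 higher and 6 lower, with 1 nearer Th1 and 3 nearer Th17. The numbers are not taken as pairs, since deviations of same-numbered libraries correlated at -0.18 to 0.66. Unknown depth leaves the precision of low values, such as Il17a and Oas2, unstated.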
